A study of Bos taurus with 6 samples.

Results

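The insulin-like growth factor (IGF) family genes described here were taken from a list of 10: the ligands IGF1 and IGF2, the receptors IGF1R and IGF2R, and the binding proteins IGFBP2, IGFBP3, IGFBP4, IGFBP5, IGFBP6 and IGFBP7. Only 3 of the 10, IGF1, IGFBP4 and IGFBP5, could be paired with an identifier, because names come from a shortened copy of the study's list of differentially expressed (DE) mRNAs. A gene without a name may or may not have been DE. The members were therefore chosen by the measured difference between the groups, and their levels are given as a description with no test. IGF1 is listed under its bovine name IGF-I, which RefSeq gives as a synonym of IGF1, and the 7 genes without a name were not analysed here.

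The cells were primary myoblasts from the longissimus dorsi muscle of fetal cattle, the precursors that fuse into muscle fibers. The RSV group (n = 3 cultures) received 20 μM resveratrol, a plant polyphenol, in differentiation medium for 4 days, and the DMSO group (n = 3 cultures) received the solvent alone. The cells were isolated by enzymatic digestion and brief preplating, and no sorting step is described. The labels name no strain, transgene or fetus for either group, and they do not say whether the cultures share a fetus. Of 26332 mRNAs listed in the deposited table, 20459 had reads, and the table gives 1 mean per group.

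Whole reads of single libraries were recovered from the group means for 20260 of the 20459 mRNAs with reads, including all 3 IGF family members. The libraries of a group are called a, b and c in order of falling size factor, the divisor that corrects for sequencing depth. The letters pair no RSV library with a DMSO library, and they were not linked to sample labels. Recovered reads summed to between 12107812 and 14330894 per library. RSV library c stood apart from a and b in many mRNAs, so the differences of the family members and of the genes that it moves most are given with and without it.

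IGF1 is a secreted peptide that activates the receptor tyrosine kinase IGF1R, which signals through insulin receptor substrate adaptors to the PI3K-AKT-mTOR and the RAS-MAPK pathways. In skeletal muscle this signaling is known for promoting both the proliferation and the differentiation of myoblasts and the growth of fibers. IGFBPs bind the ligands outside the cell, and proteases that cleave IGFBPs set the ligands free.

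All 3 IGF family members with a name were lower in the RSV group. IGF1 stood at 18.6% of its DMSO mean, IGFBP5 at 44.0% and IGFBP4 at 77.3%. Without RSV library c these shares were 22.5%, 53.5% and 73.3%. For none of them did a RSV library overlap with a DMSO library, and the difference was larger than the SD within either group. This follows in part from how they were chosen: among the 14828 mRNAs tested (10 or more normalized reads on average), all RSV libraries lay below all DMSO libraries in 26.6% and above them in 26.9%. A linear model weighted by precision (limma voom, Benjamini-Hochberg adjusted p under 0.05) called 17.4% of these mRNAs lower and 16.7% higher in the RSV group. With libraries scaled by their total reads instead, the calls moved from 2585 lower and 2474 higher to 1939 lower and 3289 higher, while the median log2 difference over all mRNAs moved from 0.004 to 0.08. The total of 5059 calls fell to 2701, 2765 or 2552 when DMSO library a, b or c was left out.

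IGF1 (ENSBTAG00000011082), the ligand, had 11.95, 11.998 and 5.69 normalized reads in RSV libraries a, b and c. In DMSO libraries a, b and c it had 61.2, 52.1 and 46.3 normalized reads. Every RSV library was thus several times lower than every DMSO library. The group means were 9.88 ± 3.63 (SD, n = 3) in RSV and 53.2 ± 7.54 (SD, n = 3) in DMSO. The log2 difference was −2.44 (standard error 0.33), and 39 of the 14828 mRNAs had a lower value. Behind these means stand 32 RSV reads and 150 DMSO reads, a ratio of 0.186 with an exact binomial 95% interval of 0.123 to 0.274. Such intervals cover counting error only. Without RSV library c the log2 difference was −2.11.

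IGFBP5 (ENSBTAG00000007062), a binding protein that is held in the extracellular matrix and is known for its induction during myoblast differentiation, had 229.8, 251 and 112 normalized reads in RSV libraries a, b and c. Its DMSO libraries a, b and c had 453, 409.6 and 485 normalized reads. RSV library c had less than either other RSV library, and all 3 lay below the DMSO libraries. The means were 197.6 ± 74.9 (SD, n = 3) in RSV and 449 ± 38.0 (SD, n = 3) in DMSO. The log2 difference was −1.26 (standard error 0.25), lower than in all but 313 of the mRNAs tested. Without RSV library c it was −0.90, so this library deepened the difference.

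IGFBP4 (ENSBTAG00000008611), a binding protein best known as an inhibitor of IGF action, had 9425, 8946 and 10680 normalized reads in RSV libraries a, b and c. The DMSO libraries a, b and c had 12397, 12906 and 12283 normalized reads. Here library c was the highest of the RSV group and lay nearest to the DMSO libraries. The means were 9684 ± 895 (SD, n = 3) in RSV and 12529 ± 332 (SD, n = 3) in DMSO. The log2 difference was −0.38 (standard error 0.07), and 2367 of the mRNAs tested had a lower value. It was −0.45 without RSV library c.

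**Figure D1:**
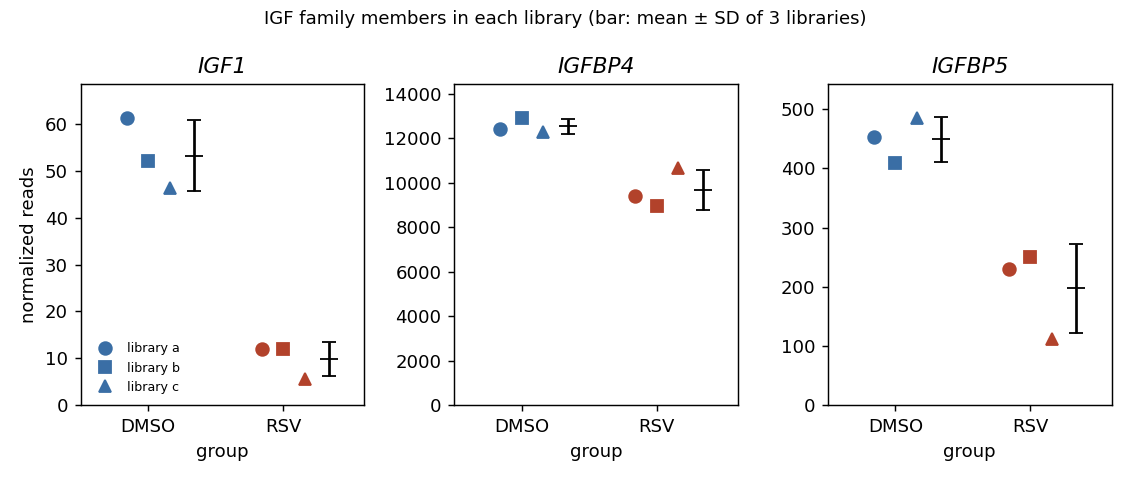
Normalized reads (vertical axes from 0, a scale of its own for each gene) of IGF1, IGFBP4 and IGFBP5 in the DMSO and RSV groups, with 1 point per library and the mean ± SD of 3 libraries beside the points. In each gene the 3 RSV points lie below the 3 DMSO points, and RSV library c (triangle) is lowest for IGF1 and IGFBP5 and highest for IGFBP4.

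Genes that act on the ligand outside the cell were read from a list of 14, which holds IGFBP1, the acid-labile subunit of the circulating IGF complex, proteases that cleave IGFBPs and inhibitors of those proteases. Of these, 5 had a name and 4 had recovered reads in both groups, and limma voom called 4 lower and 0 higher, beside the 17.4% and 16.7% of all mRNAs. Their median log2 difference was −1.25, and −0.79 without RSV library c, against −0.40 over the 1791 named mRNAs tested and 0.004 over all mRNAs tested. Like the family members, these genes have a name only because they were DE. For HTRA1, a serine protease that can cleave IGFBPs, the DMSO reads could not be recovered, and no value is given.

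STC2 (ENSBTAG00000001823), stanniocalcin 2, inhibits the pappalysins, proteases that cleave IGFBP4 and IGFBP5. It had 217, 316 and 76.8 normalized reads in RSV libraries a, b and c against 768, 837 and 822 in DMSO libraries a, b and c. RSV library c stood far below the other RSV libraries, and all 3 lay far below the DMSO libraries. The log2 difference was −2.20 (standard error 0.36), and −1.63 without RSV library c.

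IGFALS (ENSBTAG00000033299), the acid-labile subunit that joins an IGF and a binding protein in the ternary complex of serum, had 168, 193 and 75.9 normalized reads in RSV libraries a, b and c. Its DMSO libraries a, b and c had 327, 323 and 311. The DMSO libraries differed little, with a coefficient of variation of 2.52% against 42.3% in RSV. The log2 difference was −1.24 (standard error 0.27), and −0.83 without RSV library c.

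ADAM12 (ENSBTAG00000012444), a membrane metalloprotease that cleaves IGFBPs and is known from myoblast fusion, had 2229, 2805 and 877.5 normalized reads in RSV libraries a, b and c. In DMSO libraries a, b and c it had 4157, 4401 and 4101. Once more RSV library c was the lowest, and without it the log2 difference of −1.26 (standard error 0.36) was −0.75, over 1.5 times smaller. ADAM9 (ENSBTAG00000017455), a related metalloprotease, had 3088, 3607 and 3433 normalized reads in RSV libraries a, b and c and 4710, 4722 and 4741 in DMSO libraries a, b and c. Its RSV library c lay between the other two, and its log2 difference was −0.49 (standard error 0.07).

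**Figure D2:**
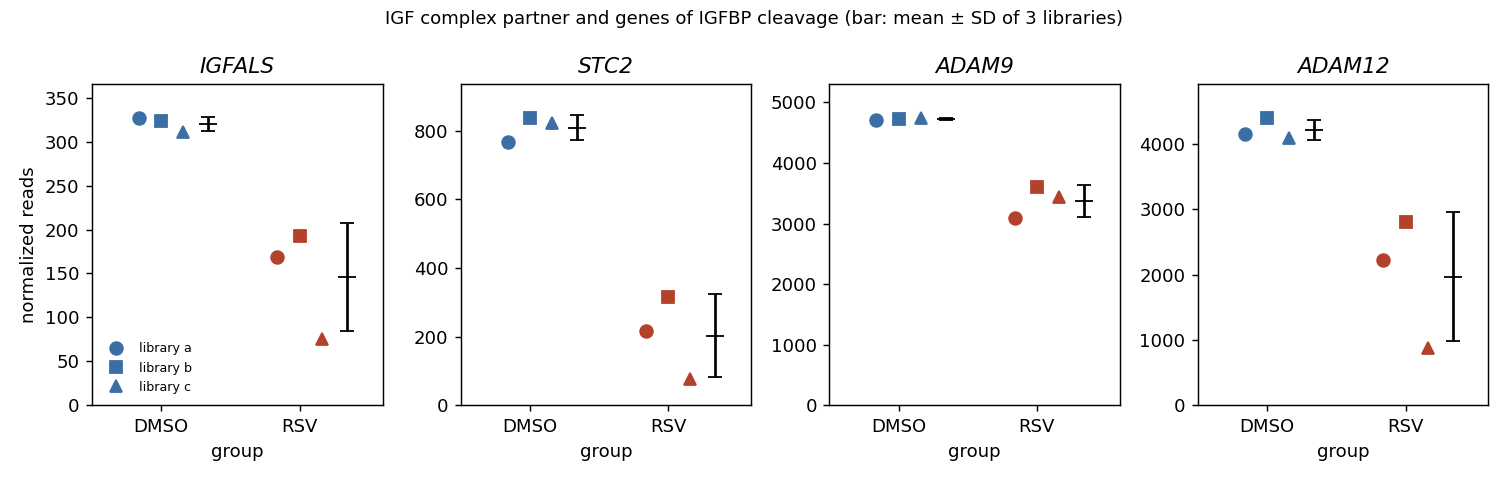
Normalized reads (vertical axes from 0, a scale of its own for each gene) of IGFALS, STC2, ADAM9 and ADAM12 in the DMSO and RSV groups, with 1 point per library and the mean ± SD of 3 libraries beside the points. RSV library c (triangle) is the lowest point for IGFALS, STC2 and ADAM12, and for ADAM9 it lies between a and b.

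Among the IGF family and its extracellular partners, RSV library c was thus low in some genes and not in others. It had at most 50% of the mean of RSV libraries a and b in 5 of the 7 genes with reads: 47.5% for IGF1, 46.6% for IGFBP5, 42.0% for IGFALS, 28.9% for STC2 and 34.9% for ADAM12. Over all mRNAs tested 3.84% were that low in library c, and over the mRNAs called lower 6.62%. IGFBP4 stood at 116.3% and ADAM9 at 103%. The low value of IGF1 rests on 6 reads in library c, too few for a detectable drop. The cut of 50% lies just above the values of IGF1 and IGFBP5. The group difference that chose the genes includes library c, so these shares are a description.

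For IGF1 the drop in library c rests on 6 reads, and its 95% exact Poisson interval of 2.09 to 12.4 normalized reads holds the values of libraries a and b, so a difference between RSV libraries was not detectable at this depth. IGFBP5 had 118 reads in library c against 250 and 272 in a and b. Of the 18 genes in the remaining lists, 0 had library c at 50% or less. RPS6KA1, a kinase downstream of MAPK, went the other way, with 192% in library c. Over all mRNAs tested library c was as often the lowest (42.4%) as the highest (41.5%) of the RSV libraries, and among mRNAs called lower it was the lowest in 73.4%.

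**Figure D3:**
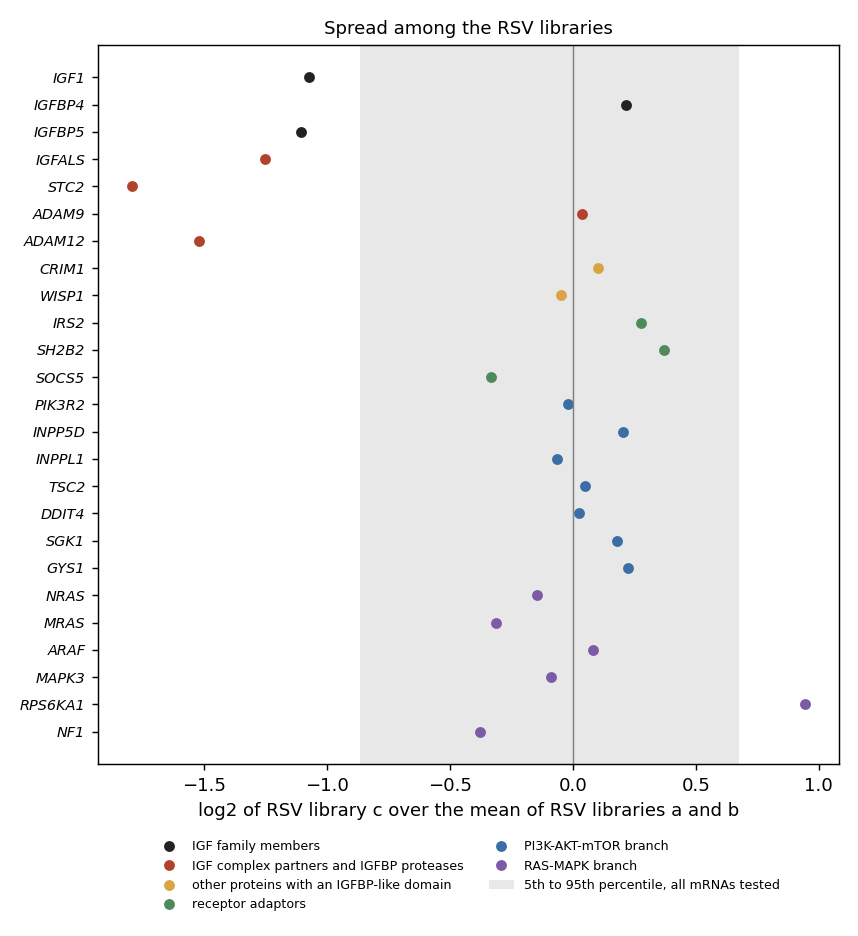
Log2 of RSV library c over the mean of RSV libraries a and b (horizontal axis) for the 25 IGF family and pathway genes, colored by list, with the range from the 5th to the 95th percentile of all 14828 mRNAs tested in grey. IGF1, IGFBP5, IGFALS, STC2 and ADAM12 lie left of the grey range, RPS6KA1 lies right of it, and the remaining genes lie inside it.

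Proteins outside the family that carry an IGFBP-like domain were read from a list of 12, of which 2 had a name. WISP1 (ENSBTAG00000000707), a matricellular protein of the CCN family, had 685 to 776 normalized reads in RSV against 1400 to 1559 in DMSO. Its log2 difference was −1.02 (standard error 0.07). CRIM1 (ENSBTAG00000009020), a membrane protein that binds bone morphogenetic proteins, had 5983 to 6597 normalized reads in RSV against 4456 to 4818 in DMSO. Its log2 difference was 0.45 (standard error 0.06), opposite to that of the family members.

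Downstream of the receptor, 3 of 19 adaptors and their regulators had a name, and limma voom called 1 lower and 2 higher. Over all mRNAs tested 17.4% were called lower and 16.7% higher. Every named mRNA tested was called, 55.6% of them lower. IRS2 (ENSBTAG00000012019), a docking protein of the IGF1 and insulin receptors, had 1913, 1714 and 2200 normalized reads in RSV libraries a, b and c. Its DMSO libraries a, b and c had 1165, 1332 and 1344. Every RSV library was above every DMSO library, at a mean of 1942 ± 244 (SD, n = 3) against 1280 ± 99.8 (SD, n = 3). The log2 difference was 0.60 (standard error 0.10). SH2B2 (ENSBTAG00000009691), an adaptor of the insulin receptor, had 235 to 323 normalized reads in RSV against 99.6 to 149 in DMSO, a log2 difference of 1.13 (standard error 0.18). SOCS5 (ENSBTAG00000008987), a suppressor of cytokine and growth factor signaling, had a log2 difference of −0.67 (standard error 0.10).

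In the PI3K-AKT-mTOR branch 7 of 34 listed genes had a name, with 5 called higher and 2 called lower and a median log2 difference of 0.43. The shares over all mRNAs tested were 16.7% higher and 17.4% lower, and all named mRNAs tested were called, 55.6% of them lower. PIK3R2 (ENSBTAG00000002350), a regulatory subunit of PI3K, had 2919, 3130 and 2984 normalized reads in RSV libraries a, b and c and 1734, 2094 and 1972 in DMSO libraries a, b and c. Its log2 difference was 0.64 (standard error 0.08).

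The other genes that were higher in this branch are known as brakes on it. DDIT4 (ENSBTAG00000000163), an inhibitor of mTORC1 that is induced by stress, had 3977, 4054 and 4083 normalized reads in RSV libraries a, b and c against 2576, 2624 and 2647 in DMSO libraries a, b and c. Its groups were the tightest of the branch, with coefficients of variation of 1.35% in RSV and 1.39% in DMSO, and its log2 difference was 0.63 (standard error 0.05). TSC2 (ENSBTAG00000020617), a subunit of the complex that holds mTORC1 inactive, had a log2 difference of 0.43 (standard error 0.06). INPPL1 (ENSBTAG00000019167) and INPP5D (ENSBTAG00000020173) encode phosphatases that remove a phosphate from the lipid product of PI3K. INPPL1 had a log2 difference of 0.35 (standard error 0.05). INPP5D had 117 reads in the RSV group and 10 in the DMSO group, a ratio of 10.2 with an exact binomial 95% interval of 5.35 to 21.8.

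The genes called lower in this branch were SGK1 and GYS1. SGK1 (ENSBTAG00000004269), a kinase that PI3K signaling activates, had 1646 to 1918 normalized reads in RSV against 2802 to 3112 in DMSO, a log2 difference of −0.74 (standard error 0.07). GYS1 (ENSBTAG00000039958), the glycogen synthase of muscle, had 831 to 1063 normalized reads in RSV against 1278 to 1317 in DMSO, a log2 difference of −0.44 (standard error 0.09).

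In the RAS-MAPK branch 6 of 15 listed genes had a name, with 4 called lower and 2 called higher. Again the shares over all mRNAs tested were 17.4% lower and 16.7% higher, and 55.6% of the named mRNAs were called lower. MAPK3 (ENSBTAG00000016156), the kinase ERK1, had a log2 difference of −0.44 (standard error 0.07). The small GTPases NRAS (ENSBTAG00000046797) and MRAS (ENSBTAG00000001497) had log2 differences of −0.36 and −0.50, and NF1 (ENSBTAG00000011829), which inactivates RAS, had −0.43. ARAF (ENSBTAG00000005039), a kinase that RAS activates, had a log2 difference of 0.48 (standard error 0.07). RPS6KA1 (ENSBTAG00000014447) had 152, 168 and 307 normalized reads in RSV libraries a, b and c against 39.4, 52.1 and 38.4 in DMSO libraries a, b and c. Its log2 difference was 2.19 (standard error 0.39), and 1.88 without RSV library c.

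Over the 5 pathway lists together 22 of 94 genes had a name and recovered reads in both groups, with 12 lower (54.5%) and 10 higher. Of all named mRNAs tested, 55.6% were lower, and of all mRNAs tested 49.6%. The share over the lists as a whole was therefore near that of the named mRNAs. Every one of these 22 genes was DE by the choice of names, so nothing is read from the number called.

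**Figure D4:**
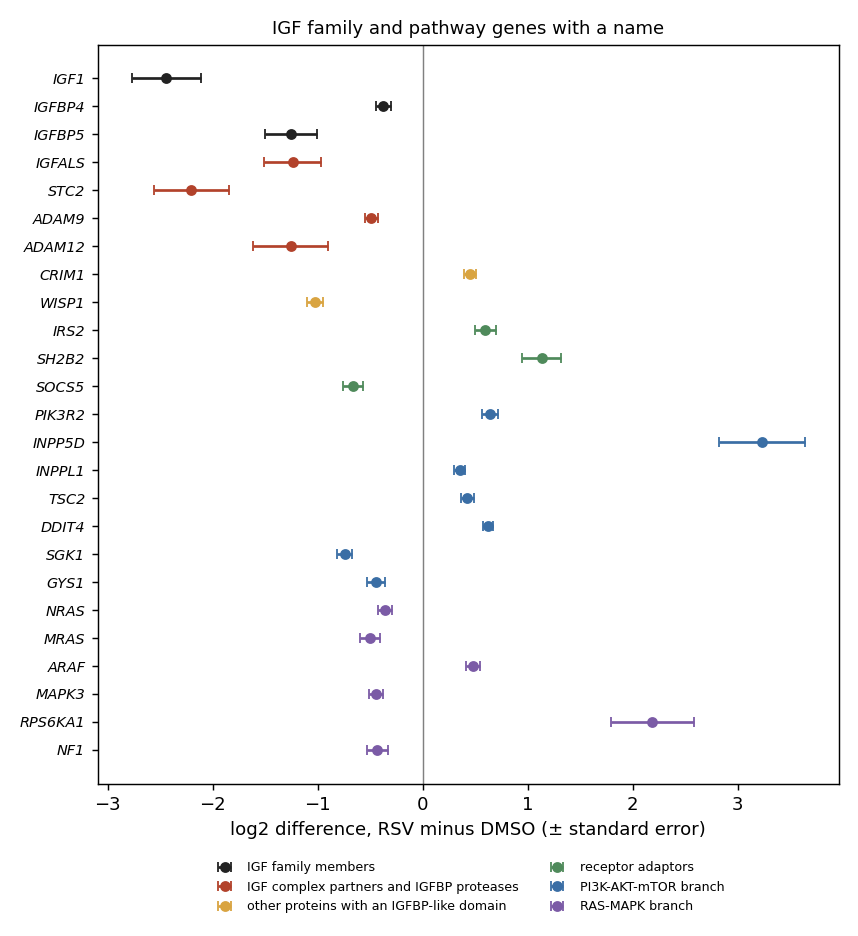
Log2 difference between RSV and DMSO (horizontal axis, RSV minus DMSO, bars of ± 1 standard error from limma voom) for the 25 IGF family and pathway genes with a name and recovered reads, colored by list. The ligand, the binding proteins and the 4 extracellular partners lie left of 0, and the PI3K-AKT-mTOR genes lie mostly right of 0.

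Across the 6 libraries, the named mRNAs most like each member were sought by the Pearson correlation of log2(normalized reads + 1) among 1596 named mRNAs with a mean of at least 100. The points share the group difference that gave these mRNAs their names, so high values were common: 856 mRNAs had a correlation above 0.9 with IGF1, 692 with IGFBP5 and 113 with IGFBP4. Nearest to IGF1 were IFNAR2, a subunit of the type I interferon receptor, NTAN1, an amidase, and DSEL, an enzyme related to dermatan sulfate epimerase. All were at 0.998. Their place as nearest rests in part on the low library c of IGF1, which had 6 reads and no detectable drop. Nearest to IGFBP5 were ZBTB1, a zinc finger protein (0.999), the adhesion receptor ADGRG6 (0.998) and the exocyst subunit EXOC5 (0.997).

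Nearest to IGFBP4 were FASN, the fatty acid synthase (0.996), the xylosyltransferase GXYLT2 (0.994) and the growth factor FGF18 (0.993). These 3 share with IGFBP4 that library c was the highest of the RSV group. FASN had 6442, 6196 and 7383 normalized reads in RSV libraries a, b and c and between 8428 and 8846 in DMSO.

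The labelled cell type was read against markers with a name. Of 20 muscle cell markers 14 had a name and 13 had recovered reads, among them MYMK, which drives myoblast fusion. MYOD1, MYF5, MYOG, PAX7 and DES had no name and were not analysed here. The 13 markers together had 28118 to 29213 normalized reads in RSV against 19142 to 21322 in DMSO, with 11 of the 13 called higher, where 796 of the 1791 named mRNAs and 16.7% of all mRNAs were called higher. MYL1, a myosin light chain, was called lower. Of 10 genes listed as fibroblast markers all had a name and 6 had recovered reads in both groups. All 6 were called lower, where 55.6% of the named mRNAs and 17.4% of all mRNAs were. TCF4 among them is a doubtful marker, because the fibroblast gene often called by that name is a different one. Every named mRNA tested was called in one direction or the other. The 6 listed fibroblast genes together had 20629 to 21248 normalized reads in RSV against 33261 to 33899 in DMSO. Of these, TCF4 gave 452 to 571 in RSV and 774 to 818 in DMSO. These sums leave out THY1, DCN, LUM and COL3A1, whose reads could not be recovered in both groups and whose direction is not given. In RSV library c the muscle markers summed to 29213 and the listed fibroblast genes, TCF4 included, to 20629 normalized reads, close to libraries a and b. Single listed genes differed more. Of the mean of a and b, library c had 74.7% for POSTN, 78.7% for FAP and 80.7% for TCF4. It had 108% for PDGFRA, 107% for COL14A1 and 104% for DPT. Muscle markers ranged from 87% (MYMK) to 124% (MYL1).

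Of the markers of other cells, 0 of 6 for adipocytes, 2 of 7 for endothelial cells (FLT1 and ERG) and 1 of 5 for macrophages (CD14) had a name. CD14 had 27.7 to 46.5 normalized reads in RSV against 8.34 to 10.4 in DMSO. The endothelial markers went opposite ways: FLT1 had a mean of 527 normalized reads in RSV against 257.9 in DMSO (log2 difference 1.03), and ERG had 72.9 against 226 (log2 difference −1.66). None of the markers with recovered reads was at 0. These lists too have names through DE mRNAs alone, and their part in the lower levels of IGF1, IGFBP4 and IGFBP5 was not tested. In such bulk libraries fewer cells of a type and less RNA per cell cannot be told apart.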

How the data were processed

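Expression was measured by RNA-seq in 3 RSV and 3 DMSO cultures, grouped by the sample titles. The authors filtered the reads, compared the groups with DESeq and deposited 1 normalized value per mRNA and group, which the values show to be the mean of read counts divided by size factors. The mRNA aligner, counter, strand setting and annotation are not given in the sources used here. The deposited fold changes and p-values and the miRNA part were not used, and 0 columns hold values of single samples.

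The decimal point is missing from all values above 1, which hold up to 15 significant digits. Each mean was written as a sum of 3 whole read counts over size factors (RSV 1.09, 1.08 and 1.05, DMSO 0.964, 0.960 and 0.886), which also placed the decimal point. Combinations were searched up to a mean of 15000 and accepted where fewer than 0.01 accidental ones were expected. This left out 199 of the 20459 mRNAs with reads, all with means of at least 4478 where a mean was settled. HTRA1 is among them. A table of group means cannot be tested across samples, so the recovered reads were tested.

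limma voom (limma 3.58.1, R 4.3.3) was fitted to 14828 mRNAs averaging 10 or more normalized reads, without covariates, two-sided, with Benjamini-Hochberg adjustment. Standard errors come from this fit. With 3 libraries per group the p-values set the group difference against the spread between these cultures, with the variance moderated across mRNAs. Whether they cover variation between fetuses is not known. Other steps used Python 3.11.15, numpy 2.4.6, pandas 2.3.3, scipy 1.17.1, numba 0.67.0 and matplotlib 3.10.9, and the steps were tested on simulated data. Alternatives were other library scalings, no minimum, limma trend, the ratio of means, and each library left out.

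Names came from the study's list of DE mRNAs in a shortened copy, which names 1863 of the 20459 mRNAs. RefSeq matched 0 Ensembl identifiers. Named genes are all listed genes with a name there and, per member, the 3 most correlated named mRNAs. The members and lists were chosen with earlier results of these data known. Sequences of the members are not shown because no sequence table was used here. The result of 1 muscle marker is not reported here.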

Additional observations from a re-analysis of the deposited data

How the results depend on the processing

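With each library left out in turn the log2 differences ranged from −2.61 to −2.11 for IGF1, from −0.45 to −0.32 for IGFBP4 and from −1.47 to −0.90 for IGFBP5. A shift under 1 SD, or an unchanged sign, says nothing of stability there, because 1 of 3 libraries cannot move a mean by more and the groups do not overlap. Under the alternatives that keep all 6 libraries, 122 of 125 log2 differences in the 25 family and pathway genes moved by at most 1 SD. The SD is that of log2 reads in whichever group varied more. The other 3 were CRIM1 (0.53), INPPL1 (0.42) and DDIT4 (0.70), with libraries scaled by total reads. Their SDs were small, at 0.071, 0.045 and 0.020, against 0.551 for IGF1 and 0.635 for IGFBP5. The same scaling moved IGF1 from −2.44 to −2.36 and IGFBP4 from −0.38 to −0.30. The count therefore reflects mainly the SD of each gene and says little of stability. The number of mRNAs called was 5059. It ranged from 2552 to 6304 when libraries were left out. The lowest counts came without a DMSO library and the highest without RSV library c, and the cause was not tested. The median log2 difference of the 4 extracellular partners moved from −1.25 to −0.79 without RSV library c, to −1.41 without a and to −1.54 without b. No paired analysis was possible because the recovered libraries carry no replicate number. The 32 RSV reads of IGF1 limit what can be said of its spread between libraries.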
